A study of Mus musculus with 8 samples.

Results

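The genes described here encode the enzymes and transporters that carry glucose to pyruvate and lactate, the mitochondrial entry and first reactions of pyruvate with their regulators, and the pentose phosphate branch. They were selected by symbol, from a list of 37 symbols; the rule uses no measured value, but the list was drawn up with earlier results of these data known. Of these, 36 symbols were found among the 18088 gene IDs of the count table, and Aldoc was not analysed here. Since Aldoa has 2 gene IDs, 37 gene IDs were followed, and all 37 were among the 17972 that passed the filter on low counts.

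The libraries were made from differentiated 3T3-L1 cells, which are labelled as wildtype adipocytes. This mouse preadipocyte line becomes adipocyte-like in culture. The mature cells were detached, transfected in suspension and reseeded on a Matrigel coat with siRNA against Erk3 (siErk3, 4 libraries) or with a nontargeting control (siNTC, 4 libraries). Both groups received 1.25 nM of siRNA per cm2 and were collected 48 h later, and no further treatment is named for these libraries. The study set out to learn how the atypical kinase ERK3 acts on lipolysis. The sources do not say whether the 4 libraries of a group came from separate cultures, so p-values measure the spread between these samples, which may be technical.

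Depth was even, with total counts between 9854522 and 9943572 per library. Values are given as CPM (counts scaled to library size with TMM factors), with the SD over the 4 libraries of a group, and fold changes are siErk3 over siNTC from edgeR's quasi-likelihood test with Benjamini-Hochberg adjustment over all genes tested. A gene was called at an adjusted p under 0.05, which was met by 48.7% of all genes tested. Mapk6, the gene of ERK3, was at 69.6 ± 4.80 CPM in siErk3 cells and 579 ± 18.1 CPM in siNTC cells (log2 fold change -3.06 ± 0.059, SE). Of 10 adipocyte markers all 10 were lower in siErk3 cells, with a summed level of 16926 to 17994 CPM against 29499 to 31744 CPM in siNTC cells. All 6 preadipocyte and fibroblast markers that passed the filter on low counts, of 7 listed, were lower too (1214 to 1301 CPM summed in siErk3 cells, against 1595 to 1753 CPM in siNTC cells). All 20 interferon-stimulated genes listed were higher, at a summed 6158 to 6347 CPM in siErk3 cells against 139 to 153 CPM in siNTC cells. Markers of other cell types were sparse. Of 7 macrophage and leukocyte markers 3 passed the filter, of which 2 were higher (20.4 to 25.0 CPM summed in siErk3 cells, against 9.89 to 14.5 CPM in siNTC cells). Of 5 endothelial markers 1 passed and was not called (1.17 to 1.58 CPM in siErk3 cells, against 0.516 to 1.26 CPM in siNTC cells). Of 7 skeletal muscle markers 1 passed and was higher (9.66 to 11.6 CPM in siErk3 cells, against 4.27 to 5.78 CPM in siNTC cells). The part of these shifts in the changes below was not tested, and in bulk RNA fewer cells of a kind and less RNA per cell cannot be told apart.

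Glycolysis splits glucose into pyruvate in the cytosol. Its flow is set mainly at hexokinase, at phosphofructokinase and at pyruvate kinase. Pyruvate is then reduced to lactate and exported, or it enters mitochondria, where pyruvate dehydrogenase makes acetyl-CoA and pyruvate carboxylase makes oxaloacetate. Pyruvate dehydrogenase is switched off by its kinases (Pdk genes) and on by its phosphatases (Pdp genes). In adipocytes these routes feed triglyceride synthesis, since a glycolytic intermediate gives the glycerol backbone, acetyl-CoA exported as citrate gives fatty acids, and the pentose phosphate branch gives NADPH.

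After depletion of Erk3, most of these genes were lower. Of the 37 gene IDs, 29 were called lower, 5 were called higher and 3 were not called, where 23.8% of all genes tested were called lower and 24.9% higher. The median log2 fold change was -0.41, against 0.00095 over all genes tested. In 33 of the 37 the levels of the siErk3 and siNTC libraries did not overlap, which was the case for 43.2% of all genes tested. The largest falls were those of Pfkfb3, Pdk1, Pfkl and Pgk1, and the genes that rose were Hk1, Pgd, Pdp1, Pdk4 and G6pdx. In mm10 (GENCODE M21), Pfkfb3 lies on the minus strand of chromosome 2 from 11471433 to 11554077, Pdk1 on the plus strand of chromosome 2 from 71873224 to 71903858, Pfkl on the minus strand of chromosome 10 from 77986947 to 78010083 and Pgk1 on the plus strand of chromosome X from 106187100 to 106203699. Over all genes tested, TMM gave 4470 higher and 4275 lower calls, upper-quartile factors 3556 higher and 5394 lower, and library sizes alone 5849 higher and 3139 lower. Among the genes of these pathways the split was 4 higher and 32 lower under upper-quartile factors and 5 higher and 25 lower with library sizes alone.

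**Figure D1:**
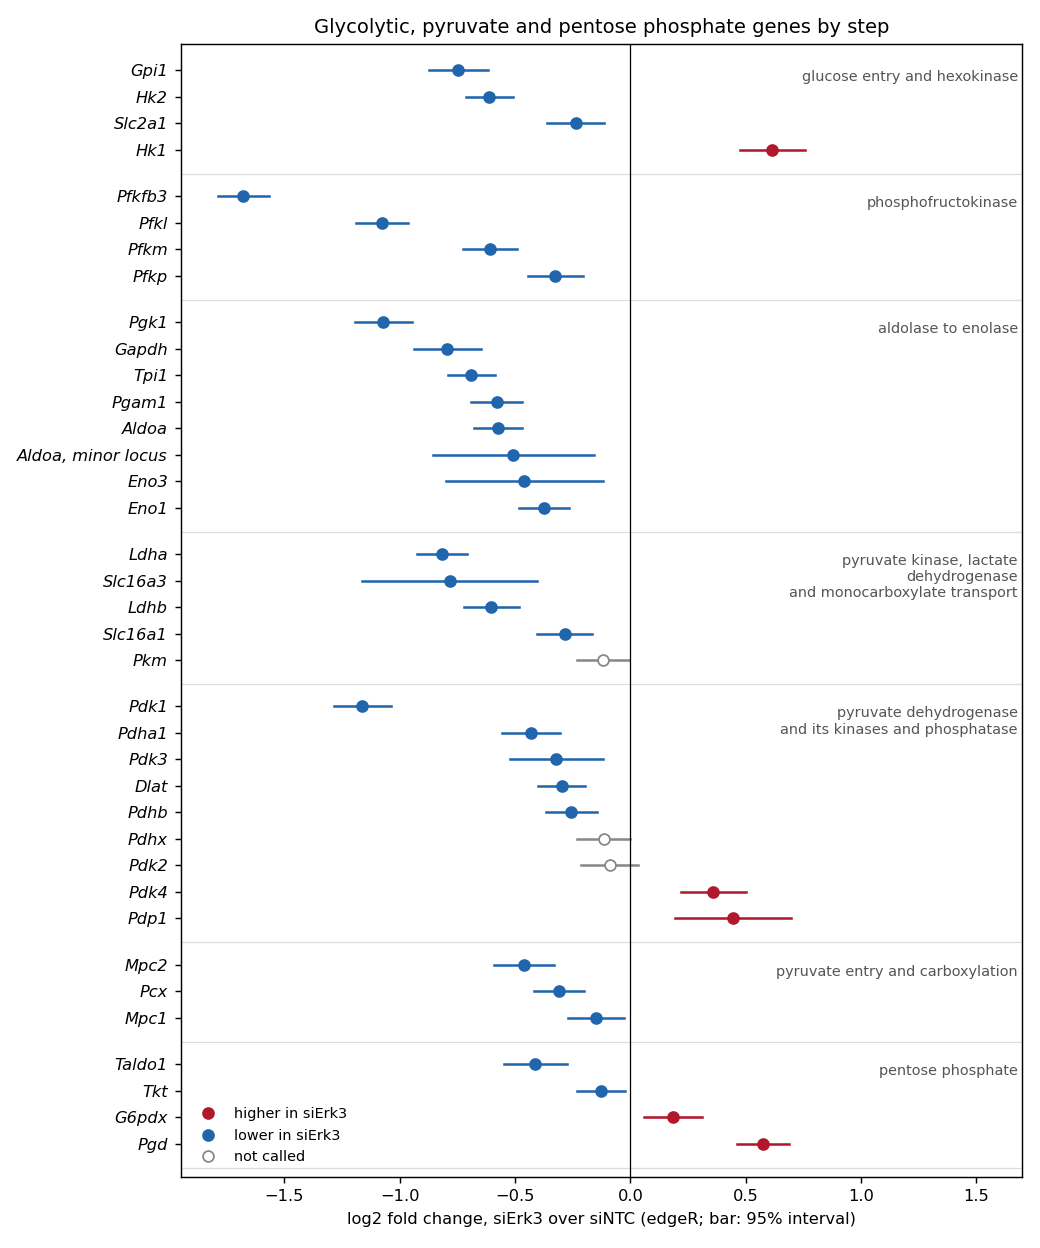
Change of each gene on the log2 scale, siErk3 over siNTC, with its 95% interval (edgeR, 4 libraries per group), ordered by step. Filled points were called at an adjusted p under 0.05 and open points were not. Of the 37 gene IDs, 29 lie to the left and were called lower, from Pfkfb3 at -1.68 to Tkt at -0.13, and 5 were called higher, up to Hk1 at 0.62.

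At the entry of glucose, 3 of 4 genes fell and 1 rose. Slc2a1, the basal glucose transporter, fell modestly, with 84.4 ± 4.16 CPM in siErk3 cells and 99.6 ± 7.70 CPM in siNTC cells (log2 fold change -0.24 ± 0.060 (SE), edgeR adjusted p = 0.00219). Hexokinases trap glucose as its phosphate, and the 2 that were measured moved in opposite directions. Hk2, the insulin-responsive form of fat and muscle, was at 197, 188, 189 and 189 CPM in the siErk3 libraries, against 279.8, 299, 299.9 and 289 CPM in the siNTC libraries (log2 fold change -0.61 ± 0.049 (SE), edgeR adjusted p = 3.62e-10). Hk1, the widely expressed form, was at 51.7, 52.4, 53.3 and 52.2 CPM in the siErk3 libraries, against 35.1, 38.3, 33.6 and 29.8 CPM in the siNTC libraries (log2 fold change 0.62 ± 0.067 (SE), edgeR adjusted p = 6.61e-08). In both genes every siErk3 library lay on one side of every siNTC library. Gpi1, which turns glucose phosphate into fructose phosphate, was at 189.9, 217, 195 and 184 CPM in the siErk3 libraries, against 314, 368, 329 and 306 CPM in the siNTC libraries (log2 fold change -0.75 ± 0.062 (SE), edgeR adjusted p = 7.26e-10). The lowest siNTC library of Gpi1 was still well above the highest siErk3 library. Exons of Slc2a1, Hk1 and Gpi1 overlap other annotated genes (Gm12868, Hk1os and Gm26762) by 105, 157 and 741 bases, and without strand the reads there cannot be assigned to one of the pair.

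All 4 genes of the phosphofructokinase step fell, and the step had a median of -0.84. Pfkfb3 makes the fructose bisphosphate that activates phosphofructokinase, and it showed the largest change of all genes of these pathways. Its level was 89.8, 84.1, 89.0 and 81.1 CPM in the siErk3 libraries, against 288, 263, 278 and 271 CPM in the siNTC libraries (log2 fold change -1.68 ± 0.054 (SE), edgeR adjusted p = 7.77e-18), that is 0.31 times the siNTC level, and its rank from the lowest of the 17972 log2 fold changes was 71. Pfkl, the liver-type subunit of phosphofructokinase, was at 227, 223, 245 and 236 CPM in the siErk3 libraries, against 477, 531, 469.6 and 487 CPM in the siNTC libraries (log2 fold change -1.08 ± 0.054 (SE), edgeR adjusted p = 4.72e-14), so that every siErk3 library had less than every siNTC library by a wide margin. Pfkm, the muscle-type subunit, was at 50.6, 50.8, 55.0 and 48.2 CPM in the siErk3 libraries, against 76.3, 78.4, 82.0 and 75.3 CPM in the siNTC libraries (log2 fold change -0.61 ± 0.057 (SE), edgeR adjusted p = 5.48e-09). Pfkp, the platelet-type subunit, changed least, with 179.7 ± 10.5 CPM in siErk3 cells and 225 ± 16.0 CPM in siNTC cells (log2 fold change -0.32 ± 0.058 (SE), edgeR adjusted p = 6.10e-05). Pfkp overlaps Pitrm1 in 748 exonic bases and Pfkm also shares exonic bases with Gm26513 and Senp1.

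From aldolase to enolase, all 8 gene IDs were called lower. Aldoa, the aldolase of most tissues, was one of the 3 genes of the list with the highest CPM. It stood at 1420.1, 1559, 1574 and 1555 CPM in the siErk3 libraries, against 2236, 2229.7, 2291 and 2335 CPM in the siNTC libraries (log2 fold change -0.57 ± 0.051 (SE), edgeR adjusted p = 1.93e-09), and the siErk3 libraries lay below the siNTC libraries without overlap. The second gene ID with the symbol Aldoa, a neighbouring locus, was at 3.72 CPM in siErk3 cells and 5.29 CPM in siNTC cells (log2 fold change -0.51 ± 0.17 (SE), edgeR adjusted p = 0.0158), and its call was lost without siErk3 replicate 4 and without siNTC replicate 2 or 3 (adjusted p = 0.0591, 0.0602 and 0.0545). Tpi1, which interconverts the triose phosphates, was at 476, 499, 489 and 483 CPM in the siErk3 libraries, against 745, 798, 795 and 802 CPM in the siNTC libraries (log2 fold change -0.69 ± 0.049 (SE), edgeR adjusted p = 4.65e-11), and its siNTC replicate 1 was lower than the other siNTC libraries while lying far above the siErk3 libraries.

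Gapdh oxidizes the triose phosphate and is widely used as a reference in expression assays. It stood at 80.6, 96.1, 96.4 and 100.2 CPM in the siErk3 libraries, against 149, 186, 158 and 154 CPM in the siNTC libraries (log2 fold change -0.79 ± 0.071 (SE), edgeR adjusted p = 2.25e-09). Pgk1 makes the first ATP that glycolysis returns. Its level was 123, 145, 127 and 133 CPM in the siErk3 libraries, against 257, 294, 281 and 277 CPM in the siNTC libraries (log2 fold change -1.07 ± 0.059 (SE), edgeR adjusted p = 3.25e-13), that is 0.48 times the siNTC level. Both genes were lower in every siErk3 library than in every siNTC library. Pgam1, the phosphoglycerate mutase of most tissues, was at 283, 325, 319 and 302 CPM in the siErk3 libraries, against 441, 468, 455 and 472 CPM in the siNTC libraries (log2 fold change -0.58 ± 0.053 (SE), edgeR adjusted p = 3.51e-09). Eno1, the main enolase, had 124 ± 4.54 CPM in siErk3 cells and 160.4 ± 6.24 CPM in siNTC cells (log2 fold change -0.37 ± 0.052 (SE), edgeR adjusted p = 2.30e-06). Eno3, the muscle enolase, was near the lower end of detection with 3.42 ± 0.433 CPM in siErk3 cells and 4.71 ± 0.562 CPM in siNTC cells, its groups overlapped, and its call (log2 fold change -0.46 ± 0.16 (SE), edgeR adjusted p = 0.0232) was lost with DESeq2, with library sizes alone and without siErk3 replicate 2, siNTC replicate 1 or siNTC replicate 2 (adjusted p between 0.0518 and 0.0761).

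At the end of the pathway, 4 of 5 genes fell. Pkm, the pyruvate kinase outside liver and red cells, was the exception. Its level was 676, 733, 734 and 699 CPM in the siErk3 libraries, against 735, 836, 779 and 736 CPM in the siNTC libraries (log2 fold change -0.12 ± 0.054 (SE), edgeR adjusted p = 0.0753), so the highest siErk3 library and the lowest siNTC library were almost the same. Of its exonic bases 767 overlap Gm49759. The small difference was called by DESeq2, by limma-voom and under upper-quartile factors (adjusted p = 0.0457, 0.0432 and 0.00623). Ldha, the subunit of lactate dehydrogenase that favours lactate formation, was at 487, 547, 522 and 525 CPM in the siErk3 libraries, against 877, 935, 915 and 939 CPM in the siNTC libraries (log2 fold change -0.82 ± 0.052 (SE), edgeR adjusted p = 5.25e-12). Ldhb, the subunit that favours the return to pyruvate, was at 54.9, 52.2, 59.8 and 57.1 CPM in the siErk3 libraries, against 89.2, 80.8, 83.5 and 86.7 CPM in the siNTC libraries (log2 fold change -0.60 ± 0.057 (SE), edgeR adjusted p = 7.03e-09). For both subunits the groups were clearly apart. Slc16a1, a lactate and pyruvate transporter, had 55.9 ± 2.73 CPM in siErk3 cells and 68.0 ± 3.17 CPM in siNTC cells (log2 fold change -0.28 ± 0.058 (SE), edgeR adjusted p = 2.60e-04). Slc16a3, the transporter of cells that export much lactate, was barely expressed and stood at 2.32, 2.57, 2.63 and 2.27 CPM in the siErk3 libraries, against 3.65, 5.16, 4.49 and 3.58 CPM in the siNTC libraries (log2 fold change -0.78 ± 0.18 (SE), edgeR adjusted p = 0.00104), again without overlap.

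**Figure D2:**
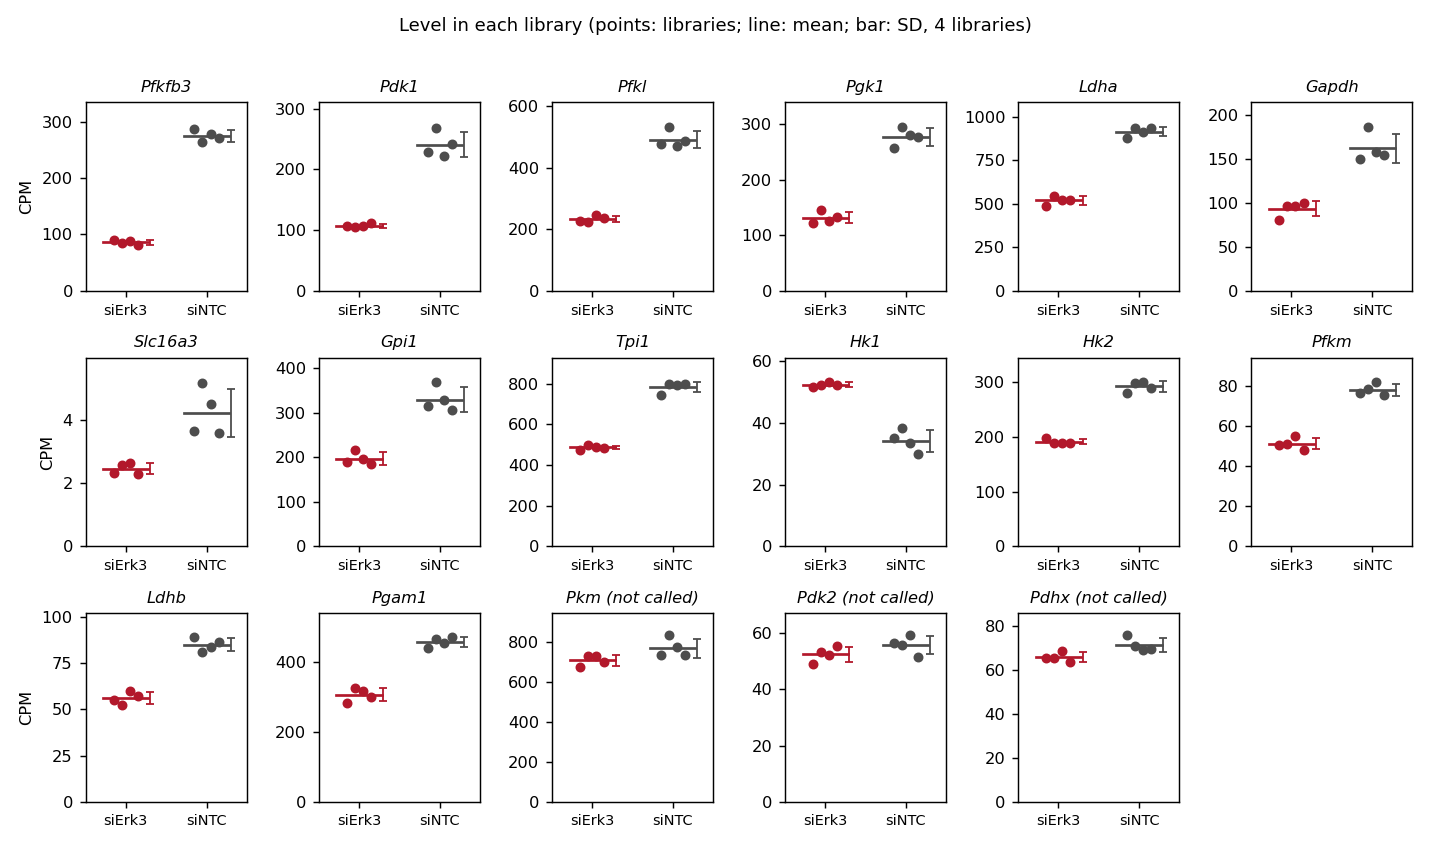
Level of 17 genes in each library, in CPM on axes that start at 0, with siErk3 to the left of siNTC in every panel; points are libraries, lines are means and bars are SD (4 libraries). The first 14 panels show the genes with the largest changes, of which 13 are lower and Hk1 is higher in siErk3 cells; in the last 3 panels, Pkm, Pdk2 and Pdhx, the groups lie close together and were not called.

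The 3 genes of pyruvate entry and carboxylation were lower. Pcx, the pyruvate carboxylase, had the highest CPM of all these genes when only a gene's own row is counted. It was at 2355, 2315, 2497 and 2379 CPM in the siErk3 libraries, against 2959, 2749.8, 3114 and 3009 CPM in the siNTC libraries (log2 fold change -0.31 ± 0.052 (SE), edgeR adjusted p = 2.76e-05), without overlap between the groups. Summed with the processed copies described below, Gapdh had 2071 to 2425 CPM in siErk3 libraries and 3671 to 4290 CPM in siNTC libraries. Aldoa summed in this way had 2275 to 2480 CPM in siErk3 libraries and 3599 to 3780 CPM in siNTC libraries. Mpc1 and Mpc2 form the mitochondrial pyruvate carrier as a pair. Mpc2 had 74.9 ± 2.30 CPM in siErk3 cells and 103 ± 9.83 CPM in siNTC cells (log2 fold change -0.46 ± 0.062 (SE), edgeR adjusted p = 1.50e-06). Mpc1, which shares 480 exonic bases with 4930506C21Rik, had 69.4 ± 3.79 CPM in siErk3 cells and 77.0 ± 4.12 CPM in siNTC cells, its groups overlapped, and its call (log2 fold change -0.15 ± 0.058 (SE), edgeR adjusted p = 0.0369) was among the least secure here, since it was lost with library sizes alone (adjusted p = 0.372), with DESeq2 (adjusted p = 0.0548) and without siErk3 replicate 1, 2 or 3 or siNTC replicate 1 or 4 (adjusted p between 0.0545 and 0.141).

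Of the 4 subunit genes of pyruvate dehydrogenase in the list 3 fell, while its regulators moved in both directions. The log2 fold change was -0.43 for Pdha1 (the catalytic alpha subunit), -0.30 for Dlat (the acetyltransferase) and -0.26 for Pdhb (the beta subunit). Pdha1 had 235 ± 8.94 CPM in siErk3 cells and 317 ± 29.8 CPM in siNTC cells, Dlat had 144 ± 1.80 CPM in siErk3 cells and 178 ± 5.22 CPM in siNTC cells, and Pdhb had 153 ± 1.67 CPM in siErk3 cells and 182 ± 11.9 CPM in siNTC cells (edgeR adjusted p = 2.75e-06 for Pdha1, 2.20e-05 for Dlat and 3.57e-04 for Pdhb). Pdhx, which anchors the dihydrolipoamide dehydrogenase, was at 65.6, 65.3, 68.7 and 63.6 CPM in the siErk3 libraries, against 75.9, 70.9, 69.2 and 69.4 CPM in the siNTC libraries, a difference that was not called (log2 fold change -0.12 ± 0.055 (SE), edgeR adjusted p = 0.0834), although the groups were just apart. Dld, the gene of that dehydrogenase, is outside the list and was also called lower, with overlapping groups. It had 180 ± 13.2 CPM in siErk3 cells and 222 ± 28.2 CPM in siNTC cells (log2 fold change -0.30 ± 0.073 (SE), edgeR adjusted p = 0.00166). Exons of Pdha1 share 603 bases with Map3k15.

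Among the kinases that inactivate the complex, Pdk1, a known target of the hypoxia-inducible factor, was at 106, 104, 107 and 112 CPM in the siErk3 libraries, against 229, 269, 222 and 242 CPM in the siNTC libraries (log2 fold change -1.16 ± 0.059 (SE), edgeR adjusted p = 7.40e-14). The highest siErk3 library of Pdk1 was far below the lowest siNTC library. Pdk2, the constitutive kinase, was at 49.1, 53.1, 52.2 and 55.4 CPM in the siErk3 libraries, against 56.6, 55.7, 59.3 and 51.5 CPM in the siNTC libraries, with overlapping groups and no call (log2 fold change -0.09 ± 0.060 (SE), edgeR adjusted p = 0.231). Pdk3 was lower, with 14.1 ± 0.659 CPM in siErk3 cells and 17.6 ± 2.27 CPM in siNTC cells (log2 fold change -0.32 ± 0.097 (SE), edgeR adjusted p = 0.00842), a call that was lost with library sizes alone (adjusted p = 0.0508). Pdk4, the kinase induced by fasting and fatty acids, was higher, with 42.9 ± 2.88 CPM in siErk3 cells and 33.5 ± 2.06 CPM in siNTC cells (log2 fold change 0.36 ± 0.068 (SE), edgeR adjusted p = 1.19e-04). Pdp1, a phosphatase that reactivates the complex, was also higher, with 11.2 ± 1.63 CPM in siErk3 cells and 8.21 ± 0.764 CPM in siNTC cells (log2 fold change 0.45 ± 0.12 (SE), edgeR adjusted p = 0.00379). Outside the list, the phosphatase Pdp2 and the phosphatase regulatory subunit Pdpr were lower. Pdp2 had 65.7 ± 3.23 CPM in siErk3 cells and 83.8 ± 3.71 CPM in siNTC cells (log2 fold change -0.35 ± 0.056 (SE), edgeR adjusted p = 1.57e-05). The log2 fold change of Pdpr was -0.39 ± 0.053 (SE, edgeR adjusted p = 1.71e-06).

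The 4 listed genes of the pentose phosphate branch split by its arms. G6pdx and Pgd, the dehydrogenases of the oxidative arm that yield NADPH, were higher, and Tkt and Taldo1, the transketolase and transaldolase of the nonoxidative arm, were lower. Outside the list, Pgls and H6pd (oxidative) and Rpia and Rpe (nonoxidative) were not called. Their log2 fold changes were -0.07, 0.12, 0.07 and 0.02. Shpk, a kinase that supplies the nonoxidative arm, was also outside the list and was called lower (log2 fold change -0.42 ± 0.076 (SE), edgeR adjusted p = 8.07e-05). Pgd, given in full after its values were seen, was at 286, 287, 279 and 281 CPM in the siErk3 libraries, against 179, 176, 202 and 203 CPM in the siNTC libraries (log2 fold change 0.58 ± 0.055 (SE), edgeR adjusted p = 6.52e-09), with the groups far apart. G6pdx, the entry enzyme, had 119.9 ± 5.07 CPM in siErk3 cells and 105 ± 9.66 CPM in siNTC cells with overlapping groups (log2 fold change 0.19 ± 0.061 (SE), edgeR adjusted p = 0.0152). Its call was lost under upper-quartile factors and without siErk3 replicate 2 or siNTC replicate 4 (adjusted p = 0.125, 0.0538 and 0.0780), and 418 of its exonic bases overlap Ikbkg. Taldo1 had 158 ± 7.27 CPM in siErk3 cells and 209.8 ± 24.0 CPM in siNTC cells (log2 fold change -0.41 ± 0.066 (SE), edgeR adjusted p = 1.77e-05). Tkt had 445 ± 13.3 CPM in siErk3 cells and 487 ± 20.5 CPM in siNTC cells (log2 fold change -0.13 ± 0.050 (SE), edgeR adjusted p = 0.0372), and its call was lost with library sizes alone (adjusted p = 0.498) and without siErk3 replicate 1, 2 or 4 or siNTC replicate 3 or 4 (adjusted p between 0.0508 and 0.0867).

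Levels can be set against each other between genes only per length. On CPM per kb of annotated exon, the order in siErk3 cells was Aldoa (525), Pcx (502), Tpi1 (177), Ldha (157), Pgam1 (155) and Pkm (142). It was the same in siNTC cells, with Aldoa at 781, Pcx at 622, Tpi1 at 285, Ldha at 277, Pgam1 at 232 and Pkm at 154 CPM per kb. Whether neighbours in this order differ beyond their spread was not tested. At the other end stood Slc16a3, with 0.460 CPM per kb in siErk3 cells and 0.793 in siNTC cells. These levels count only reads assigned to the gene's own row, which matters for genes with copies elsewhere in the genome. They also depend on the annotated length, which joins all annotated exons of a gene.

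Many glycolytic genes have processed copies, that is mostly intronless sequences made by reverse transcription of the mRNA, and the count table gives such copies rows of their own. Of the 37 gene IDs, 16 had at least 1 such row, 148 rows in all, of which 105 were copies of Gapdh. Of these 148 rows, 132 were called lower, 16 were not called and 0 were called higher, where 23.8% of all genes tested were called lower and 24.9% higher. Copies were chosen for sequence shared with their gene, so reads of the gene's mRNA can be counted on them. Their rows are therefore not independent of the gene's own row. In the summed counts of the 4 siErk3 libraries, 95.9% of the reads of the Gapdh family lay on copies, against 95.8% in the siNTC libraries. The gene's own row held 3811 of these reads in siErk3 cells and 6208 in siNTC cells, while the copies held 89859 in siErk3 cells and 142511 in siNTC cells. The share on copies was 80.9% in siErk3 cells and 81.3% in siNTC cells for Eno1, and 73.4% in siErk3 cells and 72.4% in siNTC cells for Pgk1. For Gpi1 it was 49.3% in siErk3 cells and 47.4% in siNTC cells, and the lowest share was that of Pdha1, with 9.25% in siErk3 cells and 8.67% in siNTC cells. Most counts of the Gapdh, Eno1 and Pgk1 families therefore stood in rows other than those of the genes themselves.

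A read across the junction of 2 exons comes from spliced mRNA in the gene but matches an intronless copy without a gap. Where the copy holds the same letters, such a read matches both the spliced mRNA and the copy. In the genome, the copy alone then gives a match without a gap. How far this lowered the counts on a gene's own row was not tested. In Pgk1 all 10 coding junctions occur without a mismatch in the copy Pgk1-rs7, in Gapdh all 5 occur in Gm10359, and in Pgam1 all 3 occur in Pgam1-ps2, whereas Aldoart1 holds 2 of the 7 of Aldoa and Tpi-rs11 holds 1 of the 6 of Tpi1. Lines below give 20 bases on either side of 1 such junction in the coding sequence (GENCODE M21, build mm10), with the bases of the following exon in capitals, and for Pgk1 and Gapdh also the same stretch of the copy, which has no junction.
Pgk1, exons 1 and 2: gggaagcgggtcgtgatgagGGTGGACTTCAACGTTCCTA
Pgk1-rs7: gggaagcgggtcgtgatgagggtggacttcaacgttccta
Gapdh, exons 2 and 3: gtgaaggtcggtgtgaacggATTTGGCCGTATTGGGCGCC
Gm10359: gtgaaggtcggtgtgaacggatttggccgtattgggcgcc
Pgam1, exons 1 and 2: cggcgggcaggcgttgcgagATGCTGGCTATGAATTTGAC
Aldoa, exons 3 and 4: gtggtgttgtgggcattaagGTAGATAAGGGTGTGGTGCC
Tpi1, exons 5 and 6: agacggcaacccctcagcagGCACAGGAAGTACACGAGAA

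The Pgk1 junction joins base 106187315 to base 106192007 of the plus strand of chromosome X, and the matching stretch of Pgk1-rs7 lies on the minus strand of chromosome 12 from 10900157 to 10900196. The Gapdh junction joins base 125165271 to base 125163436 of the minus strand of chromosome 6, and the stretch of Gm10359 lies on the minus strand of chromosome 5 from 105863660 to 105863699. The junctions of Pgam1 (chromosome 19, bases 41912186 and 41915605), Aldoa (chromosome 7, bases 126797337 and 126796908) and Tpi1 (chromosome 6, bases 124811882 and 124811604) have their matches on chromosomes 7, 4 and 6.

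Most copies were lower in siErk3 cells, as their genes were. Pgk1-rs7 had 183 ± 9.90 CPM in siErk3 cells and 363 ± 19.0 CPM in siNTC cells (log2 fold change -0.99 ± 0.055, edgeR adjusted p = 4.05e-13), and Gm10359 had 88.3 ± 6.60 CPM in siErk3 cells and 146 ± 10.9 CPM in siNTC cells (-0.73 ± 0.063, edgeR adjusted p = 1.26e-09). Over the 105 copies of Gapdh the log2 fold changes ran from -1.65 to -0.09 with a median of -0.77, beside -0.79 for Gapdh itself. Over the 8 copies of Ldha they ran from -1.08 to -0.81, and over the 9 of Aldoa from -0.84 to -0.50. Tpi-rs11, with 1 exact Tpi1 junction, had a log2 fold change of -0.98, beside -0.69 for Tpi1.

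Counts of each gene were then summed with those of its copies and fitted again, a step added after the data had been seen. The log2 fold change of the sum was -0.76 for Gapdh, -1.02 for Pgk1, -0.41 for Eno1, -0.70 for Gpi1, -0.60 for Aldoa, -0.86 for Ldha and -0.76 for Tpi1. None of the 16 sums differed in direction from the gene's own row. The only call that changed was that of Pkm, whose sum was called lower (-0.14 ± 0.052, edgeR adjusted p = 0.0265). With these sums in place, 5 genes were called higher and 30 lower.

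**Figure D3:**
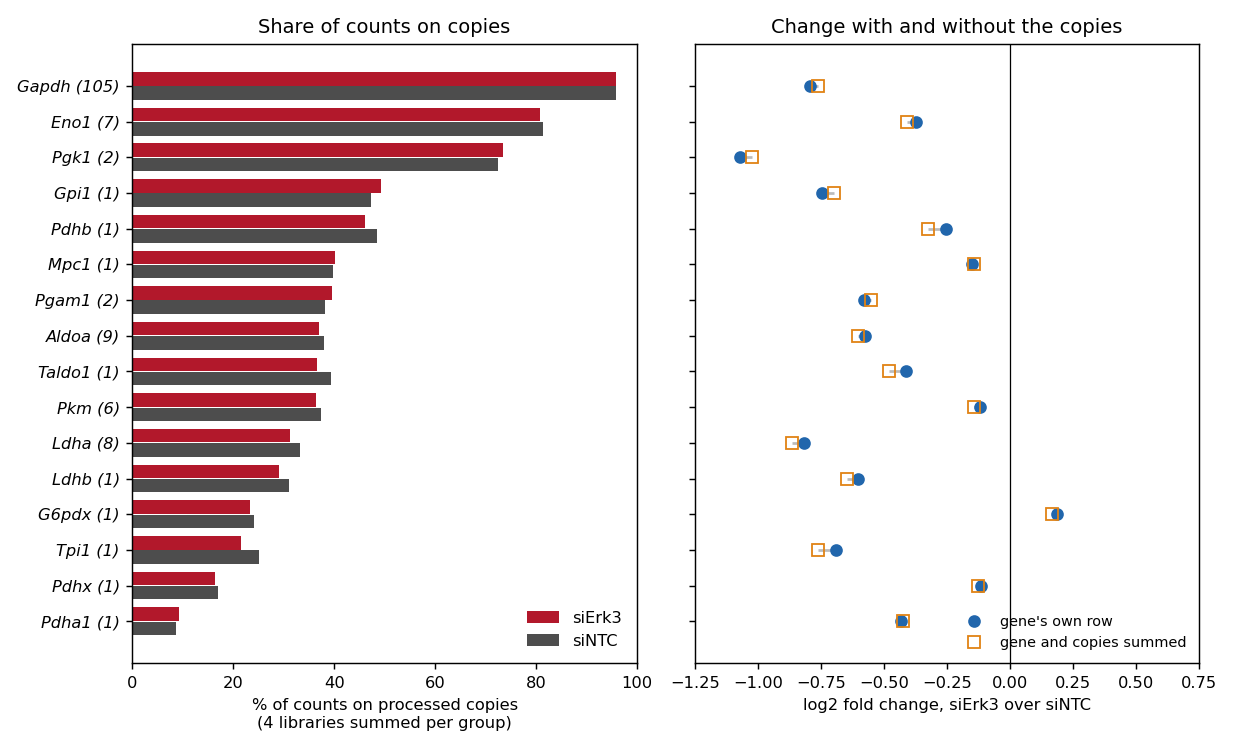
Left, percent of the counts of a gene and its processed copies that lie on the copies, siErk3 above siNTC, with the number of copies in brackets (counts of 4 libraries summed per group). Right, log2 fold change, siErk3 over siNTC, of the gene's own row (filled) and of the gene summed with its copies (open squares); the 2 marks lie close together for all 16 genes, and G6pdx alone lies to the right of 0.

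Isoforms and paired subunits can also be compared within a library, where scaling between libraries plays no part. Ratios of counts per kb were computed for 12 pairs of genes, and a 13th, with Aldoc, was not analysed here. The length used is that of all annotated exons joined, not that of the transcripts expressed. The size of a ratio, and its place above or below 1, depend on this length. The fold difference between the groups does not. In 9 of 12 the siErk3 and siNTC libraries did not overlap, each with an exact two-sided permutation p of 0.0286, the smallest that 4 against 4 libraries allow, without adjustment over the pairs. The share of other gene pairs without overlap was not computed. Single genes did not overlap in 33 of the 37 gene IDs here and in 43.2% of all genes tested. The pairs were chosen with earlier results of these data known. Hk2 over Hk1 was 5.46, 5.12, 5.06 and 5.19 in the siErk3 libraries, against 11.4, 11.1, 12.8 and 13.9 in the siNTC libraries. Per length Hk2 was above Hk1 in all 8 libraries, by a smaller margin in siErk3 cells. Pdk1 over Pdk2 was 0.882, 0.800, 0.832 and 0.822 in the siErk3 libraries, against 1.65, 1.96, 1.52 and 1.91 in the siNTC libraries, so per length Pdk1 was below Pdk2 in every siErk3 library and above it in every siNTC library. In CPM, without length, Pdk1 was above Pdk2 in siErk3 cells too, at 107 against 52.4. The annotated lengths are 7779 bases for Pdk1 and 3163 for Pdk2. Pgd over G6pdx was 1.15, 1.08, 1.11 and 1.17 in the siErk3 libraries, against 0.814, 0.815, 0.815 and 1.02 in the siNTC libraries.

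Within phosphofructokinase, Pfkl was lower relative to both other subunits. Pfkp over Pfkl averaged 0.386 in siErk3 cells and 0.228 in siNTC cells, and Pfkm over Pfkl averaged 0.439 in siErk3 cells and 0.318 in siNTC cells. Pdk4 over Pdk2 averaged 0.739 in siErk3 cells and 0.541 in siNTC cells, and Pdk3 over Pdk2 averaged 0.333 in siErk3 cells and 0.390 in siNTC cells. Mpc1 over Mpc2 averaged 3.27 in siErk3 cells and 2.64 in siNTC cells, and Slc16a3 over Slc16a1 averaged 0.0365 in siErk3 cells and 0.0518 in siNTC cells. In CPM, without length, Mpc1 was not above Mpc2. Mpc1 was at 69.4 and Mpc2 at 74.9 in siErk3 cells, against 77.0 and 103 in siNTC cells. Their annotated lengths are 2082 and 7344 bases. The groups overlapped for Ldhb over Ldha (0.227 in siErk3 cells and 0.196 in siNTC cells, exact permutation p = 0.0571), Pdha1 over Pdhb (1.59 in siErk3 cells and 1.81 in siNTC cells, exact permutation p = 0.143) and Eno3 over Eno1 (0.0857 in siErk3 cells and 0.0909 in siNTC cells, exact permutation p = 0.543). All ratios use only counts on a gene's own row. In siErk3 cells, copies held 80.9% of the family counts of Eno1, 46.1% of Pdhb, 40.2% of Mpc1, 31.2% of Ldha and 23.2% of G6pdx. Ratios with copies included were not computed.

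**Figure D4:**
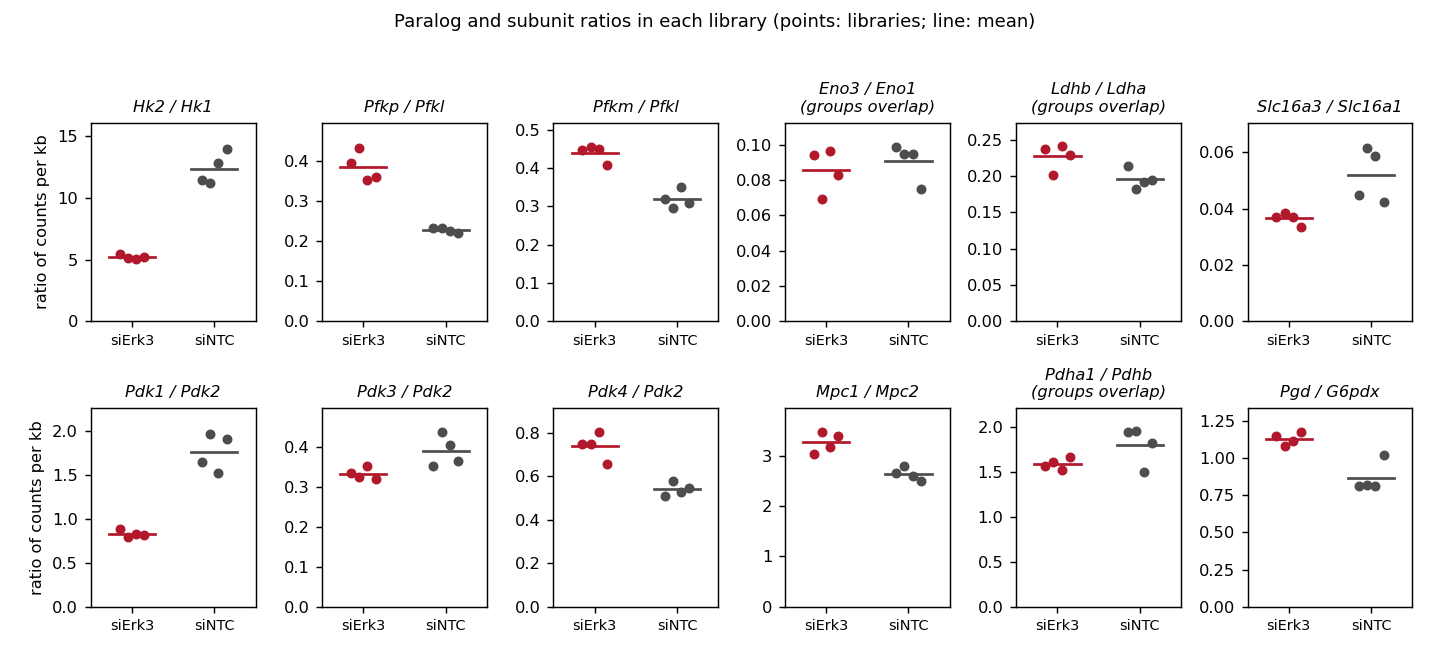
Ratio of counts per kb of 12 pairs of genes in each library, on axes that start at 0, with siErk3 to the left of siNTC; points are libraries and lines are means (4 libraries). The siErk3 points of Hk2 over Hk1 lie between 5.06 and 5.46 and those of siNTC between 11.1 and 13.9, and in 3 panels the groups overlap.

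Further genes of glucose metabolism moved in both directions. Of 60 listed, 46 passed the filter, of which 21 were called lower, 7 were called higher and 18 were not called, with a median log2 fold change of -0.11. These are 45.7% lower and 15.2% higher, beside 23.8% and 24.9% over all genes tested. The largest fall was that of Pck1, the enzyme of glyceroneogenesis that takes up the oxaloacetate made by Pcx, with 72.8 ± 2.25 CPM in siErk3 cells and 306 ± 15.9 CPM in siNTC cells (log2 fold change -2.07 ± 0.055 (SE), edgeR adjusted p = 1.46e-19). The log2 fold change was -1.11 for the glucose transporter Slc2a3, -1.10 for the neuronal enolase Eno2, -0.98 for the glycogen synthase Gys1 and -0.71 for the glycogen branching enzyme Gbe1. Akr1b3, the aldose reductase that turns glucose into sorbitol, rose most, with 41.6 ± 1.24 CPM in siErk3 cells and 20.2 ± 2.03 CPM in siNTC cells (log2 fold change 1.04 ± 0.074 (SE), edgeR adjusted p = 4.17e-11). Pgam2, the muscle phosphoglycerate mutase, rose by 0.57 on the log2 scale, Pgm1 by 0.48, the mitochondrial glycerol phosphate dehydrogenase Gpd2 by 0.29 and the ribose phosphate kinase Prps1 by 0.28. Under the symbols of the count table, Pgm1 was at 9.36 ± 1.74 CPM in siErk3 cells and 6.72 ± 0.831 CPM in siNTC cells. Pgm2, also in this list, was called lower, with 285 ± 10.2 CPM in siErk3 cells and 310 ± 6.65 CPM in siNTC cells (log2 fold change -0.12 ± 0.049 (SE), edgeR adjusted p = 0.0475).

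Of 29 regulators of these pathways 28 passed the filter, with 7 called lower, 9 called higher and 12 not called, and a median of 0.0047. These are 25.0% lower and 32.1% higher, near the 23.8% and 24.9% over all genes tested. Egln3 and Egln1, the oxygen-sensing prolyl hydroxylases that are themselves induced by hypoxia, fell most, with 108 ± 12.0 CPM in siErk3 cells and 392 ± 27.8 CPM in siNTC cells for Egln3 (log2 fold change -1.86 ± 0.069 (SE), edgeR adjusted p = 1.23e-16) and 75.3 ± 7.30 CPM in siErk3 cells and 172 ± 10.7 CPM in siNTC cells for Egln1 (log2 fold change -1.19 ± 0.065 (SE), edgeR adjusted p = 3.08e-13). Mxi1, a MYC antagonist, was also lower (-0.66), as were the nuclear receptor Esrra (-0.41) and Mlx (-0.36), a partner of glucose-sensing factors. Hif1a mRNA, which encodes the hypoxia-inducible factor whose activity is set mainly through protein stability, was higher, with 87.6 ± 7.71 CPM in siErk3 cells and 70.9 ± 8.64 CPM in siNTC cells (log2 fold change 0.30 ± 0.076 (SE), edgeR adjusted p = 0.00192). Arrdc4 and Txnip, glucose-responsive arrestins that restrain glucose uptake, rose by 1.27 and 0.35 on the log2 scale, Keap1, which holds back the antioxidant factor Nfe2l2, by 0.47 and the MYC partner Max by 0.18 (edgeR adjusted p = 3.78e-11, 1.29e-05, 8.47e-08 and 0.0369).

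Because many glycolytic genes are known targets of the hypoxia-inducible factor, hypoxia-inducible genes outside the pathway were listed too. The part of this factor in the changes was not tested. Of the 25 genes listed, 23 passed the filter, of which 13 were called lower, 4 were called higher and 6 were not called, with a median of -0.41. These are 56.5% lower and 17.4% higher, beside 23.8% and 24.9% over all genes tested. The mitophagy receptor Bnip3 had 186 ± 18.2 CPM in siErk3 cells and 622 ± 39.0 CPM in siNTC cells (log2 fold change -1.74 ± 0.065 (SE), edgeR adjusted p = 1.56e-16), and Ddit4, an inhibitor of mTOR signaling, had 29.6 ± 1.52 CPM in siErk3 cells and 113 ± 9.15 CPM in siNTC cells (log2 fold change -1.93 ± 0.066 (SE), edgeR adjusted p = 2.52e-17). The log2 fold change was -1.74 for Ankrd37, -0.93 for Fam162a and -0.77 for Higd1a. Against this direction, Hmox1, the heme oxygenase, had 1147 ± 66.1 CPM in siErk3 cells and 288 ± 25.0 CPM in siNTC cells (log2 fold change 1.99 ± 0.063 (SE), edgeR adjusted p = 6.11e-18), and Angptl4 and Anxa2 rose by 0.27 and 0.19 on the log2 scale.

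Since Gapdh and Pgk1 often serve as reference genes, 14 others in such use were set beside them. Of these, 5 were called lower, 4 were called higher and 5 were not called, with a median of 0.03. These are 35.7% lower and 28.6% higher, beside 23.8% and 24.9% over all genes tested. Those called lower were Tfrc (-0.38 on the log2 scale), Sdha (-0.37), Rplp0 (-0.26), Hprt (-0.25) and Polr2a (-0.19). Actb (cytoplasmic actin) had 728 ± 37.2 CPM in siErk3 cells and 403 ± 31.6 CPM in siNTC cells (log2 fold change 0.85 ± 0.059 (SE), edgeR adjusted p = 2.25e-11) and Tbp and Ppia rose by 0.30 and 0.17 on the log2 scale. Gapdh and Actb therefore differed in direction, by more than the spread between libraries in each.

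**Figure D5:**
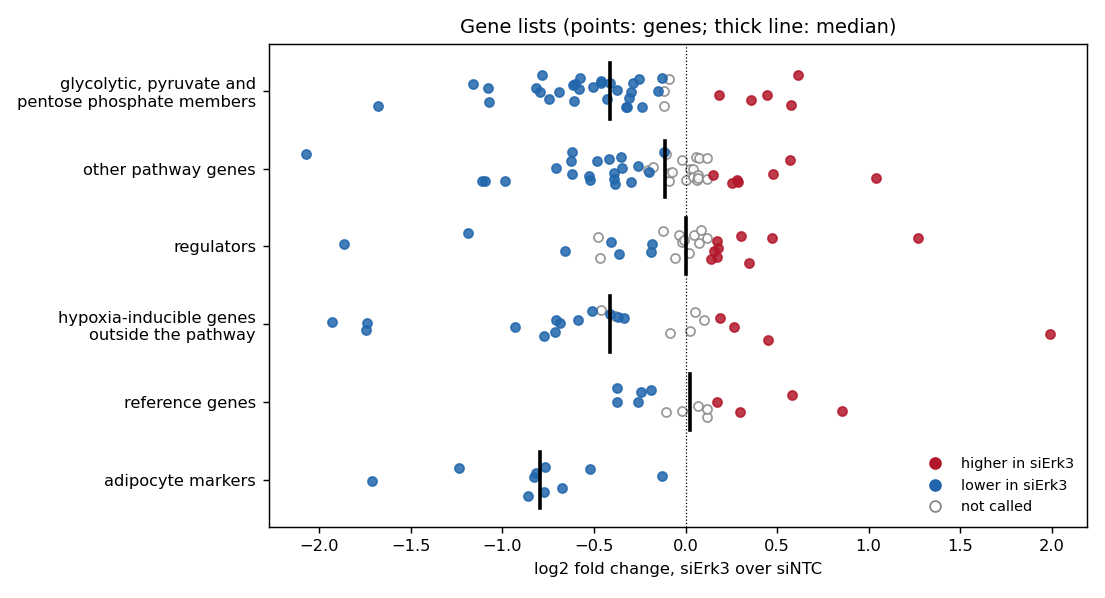
Change on the log2 scale, siErk3 over siNTC, of the genes of 6 lists; filled points were called at an adjusted p under 0.05, open points were not, and the thick line is the list's median. The medians are -0.41 for the genes of glycolysis, pyruvate and pentose phosphate, -0.11 for other pathway genes, 0.0047 for regulators, -0.41 for hypoxia-inducible genes, 0.03 for reference genes and -0.79 for adipocyte markers.

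Promoters were examined for 3 motifs in the window of 250 bases before to 50 bases after the start of each gene (RefSeq, GRCm38.p6), on both strands. The motifs were ACGTG (a form of the core of the hypoxia response element), CACGTG (the E-box, which contains ACGTG) and CCGCCC (the GC box). Of the 36 genes, 35 had a promoter in the table. ACGTG occurred in 15 (42.9%), in 25.5% of the 10471 promoters of genes tested and in 19.6% of all 32851 promoters. CACGTG occurred in 5 (14.3%), against 9.89% of those of genes tested and 7.15% of all. CCGCCC occurred in 25 (71.4%), against 62.1% of those of genes tested and 35.7% of all. A match is a description of the letters and shows no binding.

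Stretches of 60 bases upstream of the start are given for the 8 genes with the largest falls among those that have ACGTG upstream of the start, with the motif, read on either strand, in capitals; a run of 6 capitals is CACGTG.
Pfkfb3: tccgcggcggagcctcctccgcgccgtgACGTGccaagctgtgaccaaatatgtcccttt
Pgk1: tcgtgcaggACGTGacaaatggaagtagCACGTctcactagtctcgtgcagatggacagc
Ldha: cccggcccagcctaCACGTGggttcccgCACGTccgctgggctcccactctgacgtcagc
Slc16a3: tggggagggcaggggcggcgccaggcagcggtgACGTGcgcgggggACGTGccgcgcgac
Hk2: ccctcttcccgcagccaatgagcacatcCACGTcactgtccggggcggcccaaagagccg
Pfkm: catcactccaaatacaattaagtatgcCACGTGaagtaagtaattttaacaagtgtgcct
Pgam1: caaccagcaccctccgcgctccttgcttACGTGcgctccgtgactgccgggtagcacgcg
Pdk3: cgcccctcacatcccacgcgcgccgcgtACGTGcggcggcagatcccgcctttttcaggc

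These stretches lie at chr2:11553958-11554017 on the minus strand (Pfkfb3), chrX:106186941-106187000 on the plus strand (Pgk1), chr7:46845742-46845801 on the plus strand (Ldha), chr11:120949007-120949066 on the plus strand (Slc16a3), chr6:82774475-82774534 on the minus strand (Hk2), chr15:98092426-98092485 on the plus strand (Pfkm), chr19:41911729-41911788 on the plus strand (Pgam1) and chrX:93832172-93832231 on the minus strand (Pdk3). Pgk1, Ldha and Slc16a3 hold more than 1 match in the stretch shown. In Gapdh the only match lies after the start, and it is not shown. The windows of Pdk1, Pfkl, Gpi1 and Tpi1, which also fell strongly, hold no ACGTG. Other forms of the core were not searched. Of the 28 promoters of genes called lower 13 held the motif.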

How the data were processed

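Raw counts per gene were deposited by the authors for all 8 libraries. The libraries hold polyadenylated RNA and carry no strand information. A second deposited table holds the authors' own comparison (fold changes, average abundance and p-values) and was not used. According to the submitters' processing notes, bcl2fastq, FastQC, Bowtie2, edgeR and the build mm10 were used. No program that aligns reads across introns is named in them. The counting program, its annotation and its treatment of reads with several matches are not given in the sources used here, and they decide how reads are shared between a gene, its processed copies and overlapping genes.

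Differential expression was calculated with edgeR 4.0.16 (R 4.3.3) after filterByExpr (minimum count 10, minimum total 15) and TMM scaling (factors 0.960 to 1.05). The quasi-likelihood test compared siErk3 with siNTC without covariates, with Benjamini-Hochberg adjustment over all genes tested and a threshold of 0.05. Spread between replicates gave a common biological coefficient of variation of 6.08%, and chi-square per gene was 1.96 to 8.13 over all replicate pairs, above sampling noise. The fit was tested on simulated data.

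The genes, lists and rules were chosen with earlier results of these data known. All members are named by step. CPM of every library is given for the 14 called genes with the largest change and no overlap, the 3 of highest CPM and those not called, and at most 5 called genes per direction (at least 1 CPM) represent each other list. In addition, Pdp2, Pdpr, Dld, Pgls, H6pd, Rpia, Rpe and Shpk are named beside the members of their step, after their values were seen. The same holds for Pgm2, named beside Pgm1. A list is described by its counts and its median. Some genes that the rule names are not reported here.

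Copies were found as genes outside a member's locus that share at least 10% of their 21-base words with its transcripts and are pseudogenes, single-exon genes or tagged retrogenes in GENCODE M21, which holds 18050 of the gene IDs. Ratios used Python 3.11.15 with scipy 1.17.1. Alternatives were DESeq2 1.42.0, limma-voom (limma 3.58.1), RLE or upper-quartile factors or library sizes alone, no filter or a filter of 5 CPM, the replicate block and leaving out each library.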

Additional observations from a re-analysis of the deposited data

Results flagged for a closer look

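In 4 of 74 groups of 4 libraries, 1 library stood far from the others by Dixon's test, where chance gives about 1 in 20 groups, or 3.7. In siErk3 cells, replicate 1 had the highest Hk2 level with 197 CPM (the others lay between 188 and 189 CPM), the lowest Aldoa level with 1420.05 CPM (between 1555 and 1574 CPM) and the highest Dlat level with 147 CPM (between 143 and 144 CPM). In siNTC cells, replicate 1 had the lowest Tpi1 level with 745 CPM (between 795 and 802 CPM). All 4 genes kept their direction and call without that library.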

How the results depend on the processing

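Of 37 gene IDs, 28 kept their call and direction under every alternative run, 9 lost or gained a call under at least 1 (Pkm, Pdk2, Pdhx, Pdk3, Eno3, Mpc1, Tkt, G6pdx and the second Aldoa locus), and 0 reversed. The median log2 fold change of these genes was -0.41, and it was -0.48 under upper-quartile factors, -0.33 with library sizes alone and -0.36 when only genes of at least 5 CPM in at least 4 libraries were kept. Leaving out 1 library at a time gave medians from -0.42 to -0.38, 26 to 28 genes called lower and 4 to 5 called higher. DESeq2 called 28 lower and 5 higher, and limma-voom 30 and 5. The ratio of Eno3 to Eno1 changed sign without siErk3 replicate 2, and its log2 difference lay between -0.18 and 0.010 when 1 library was left out. Libraries with the same replicate number did not deviate together (correlations from -0.0158 to 0.0554), so the numbers were not taken as pairs, and with the replicate block 30 genes were called lower and 5 higher, Pkm being added (adjusted p = 0.0433) and no other call of these genes changed. Depth limited Slc16a3, Eno3 and the second Aldoa locus, which had few counts. The cause of these differences was not tested.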
